A study of Mus musculus with 20 samples.

Results

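The imprinted genes H19, Igf2, Dlk1, Meg3, Mest, Peg10 and Grb10 were examined in mouse hematopoietic stem cells (HSCs) by the histone marks found around them. The genes were followed through 5 windows of the mm9 genome build, and every listed peak that overlapped a window by at least 1 bp was taken. The H19-Igf2 window runs from 149.75 to 149.86 Mb on chromosome 7, the Dlk1-Meg3 window from 110.68 to 110.82 Mb on chromosome 12 and the Grb10 window from 11.82 to 11.95 Mb on chromosome 11. The Mest window (30.675 to 30.71 Mb) and the Peg10 window (4.685 to 4.72 Mb) lie on chromosome 6. The windows held 124 of the 218887 peaks in 8 lists, namely 29 at H19-Igf2, 56 at Dlk1-Meg3, 7 at Mest, 4 at Peg10 and 28 at Grb10. The windows were set by position and not by any measured value. The genes and lists were, however, chosen with earlier results of these data known.

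Chromatin immunoprecipitation and sequencing (ChIP-seq) was done on fetal HSCs, taken from the liver at embryonic day 14.5, and on adult HSCs, taken from the bone marrow of mice 6 to 8 weeks old. All were of strain B6129SF1, with no treatment named, and were sorted as Lin-Sca1+cKit+CD135- cells, 50000 per immunoprecipitation. This gate is the only definition of the cells in the labels, and it was not checked here against marker genes. For each of 4 marks there were 2 replicates per stage, which the deposited lists combine, so each mark and stage has 1 list and no value below carries a replicate error. A difference between stages therefore cannot be told apart from one between libraries or between peak calls, no test could be made, and read depth behind the lists is unknown. H3K4me3 marks active or poised promoters, H3K27ac active promoters and enhancers, H3K4me1 enhancers and the flanks of promoters, and H3K27me3 chromatin repressed by Polycomb.

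Imprinted genes are transcribed mainly from the copy inherited from a given parent, and the choice is kept by DNA methylation at imprinting control regions that is set in the germ line. H19 is a maternally expressed long non-coding RNA and Igf2, its neighbour, a paternally expressed growth factor that share enhancers and are switched by a control region between them. Dlk1, a paternally expressed membrane protein of the Notch ligand type, and Meg3, a maternally expressed long non-coding RNA, also share a control region. Mest and Peg10 are expressed from the paternal copy, and Grb10, an adaptor protein that restrains growth factor receptor signalling, from the maternal copy in most tissues. The H19-Igf2 and Dlk1-Meg3 loci have been tied to the maintenance of mouse HSCs. The lists carry no allele information, so whether marks that overlap lie on the same parental copy cannot be told apart from marks on opposite copies.

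Promoters of the members are shown because H3K4me3 and H3K27me3 peaks typically form over promoters rich in CpG dinucleotides. RefSeq promoter entries (250 bases before to 50 after the start of a transcript, build GRCm38.p6) matched 5 of the 7 genes, with 12 entries. H19 and Peg10 had no entry. For each gene the entry with the most CpG is printed 5′ to 3′ on the strand of the gene, with every CpG in capitals. These positions are GRCm38.p6 and cannot be set against the mm9 positions of the peaks.
Grb10 (chr11:12037371-12037670, minus strand): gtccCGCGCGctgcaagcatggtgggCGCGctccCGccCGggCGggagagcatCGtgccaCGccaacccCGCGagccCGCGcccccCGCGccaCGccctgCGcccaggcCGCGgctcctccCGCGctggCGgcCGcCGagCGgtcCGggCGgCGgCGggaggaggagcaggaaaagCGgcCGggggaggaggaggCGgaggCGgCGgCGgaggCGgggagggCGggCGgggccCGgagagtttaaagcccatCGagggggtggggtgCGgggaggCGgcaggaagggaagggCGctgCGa
Igf2 (chr7:142658755-142659054, minus strand): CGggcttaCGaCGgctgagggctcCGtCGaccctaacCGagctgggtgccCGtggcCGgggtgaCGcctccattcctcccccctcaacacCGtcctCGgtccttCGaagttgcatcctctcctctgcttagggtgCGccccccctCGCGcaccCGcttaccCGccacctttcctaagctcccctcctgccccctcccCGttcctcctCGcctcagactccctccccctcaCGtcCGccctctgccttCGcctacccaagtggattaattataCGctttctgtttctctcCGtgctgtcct
Mest (chr6:30737800-30738099, plus strand): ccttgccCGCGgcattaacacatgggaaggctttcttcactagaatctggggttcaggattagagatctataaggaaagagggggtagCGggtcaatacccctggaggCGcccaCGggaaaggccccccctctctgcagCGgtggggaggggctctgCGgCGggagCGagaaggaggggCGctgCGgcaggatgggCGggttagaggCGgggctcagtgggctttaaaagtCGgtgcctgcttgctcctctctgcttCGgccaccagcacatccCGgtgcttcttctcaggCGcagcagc
Meg3 (chr12:109540746-109541045, plus strand): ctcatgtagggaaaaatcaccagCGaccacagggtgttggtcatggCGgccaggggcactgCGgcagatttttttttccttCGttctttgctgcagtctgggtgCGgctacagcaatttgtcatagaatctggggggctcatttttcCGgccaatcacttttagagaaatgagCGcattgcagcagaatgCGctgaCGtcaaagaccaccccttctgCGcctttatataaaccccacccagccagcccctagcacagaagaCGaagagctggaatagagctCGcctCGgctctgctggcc
Dlk1 (chr12:109452573-109452872, plus strand): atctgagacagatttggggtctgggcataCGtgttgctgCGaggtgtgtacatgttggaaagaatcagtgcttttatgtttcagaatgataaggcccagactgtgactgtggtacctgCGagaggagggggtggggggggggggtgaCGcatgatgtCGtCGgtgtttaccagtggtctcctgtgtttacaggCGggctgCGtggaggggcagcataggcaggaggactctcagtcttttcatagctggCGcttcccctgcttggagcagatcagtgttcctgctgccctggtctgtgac

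The promoters differed widely in CpG number. Grb10 had 45 CpG in its 300 bases, at the 98.2 percentile of 32851 mouse promoters, and Igf2 had 24, at the 80.8 percentile. These percentiles set the entry with the most CpG of a gene against all single entries, which can raise the rank. Mest had 17 CpG, Meg3 13 and Dlk1 9, the last near the median of 8 over the promoter with the most CpG of each of 27025 genes. The same median over the 5 members was 17. Among 38 other imprinted genes 31 had an entry, and their median was also 17, with Rian at 0 and Ppp1r9a at 48 as the extremes. Entries of the same gene differed too: the remaining Igf2 entries held 2, 7 and 14 CpG and the remaining Meg3 entry 1.

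Short motifs were searched on both strands of the same 300 bases. The letters TGCCGC, the core bound by the imprinting factor ZFP57, occurred in 5 of the 12 member entries and in 11.6% of all promoters. Those 5 were the Grb10, Meg3 and Mest entries shown, a Mest entry over nearly the same bases, and an Igf2 entry other than the one shown. The GC box GGGCGG, which can overlap that core on the opposite strand, was found in 6 of the 12 against 35.7% of all promoters. The TATA box letters TATAAA were found in the Meg3 entry shown and in no other member entry, against 13.6%. Among the 31 other imprinted genes, the promoter with the most CpG held the ZFP57 core in 7, the GC box in 21 and the TATA box letters in 6. Over the promoter with the most CpG of each of the 27025 genes, the shares were 12.2%, 37.3% and 13.8%. The ZFP57 core and the GC box each contain a CpG, and the compared sets differ in CpG number. The median was 11 over the 12 member entries and 7 over all promoters. For the promoter with the most CpG it was 17 over the other imprinted genes and 8 over all genes. Shares among promoters of like CpG number were not computed, so a higher share cannot be given to imprinting. A match is a run of letters and not a measured binding site.

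Summed over the windows, the length under peaks was greater in the fetal list for every mark, although at Peg10 and Grb10 the adult H3K4me3 peaks were the longer ones. Of the 20 pairs of window and mark, 10 carried peaks in both lists, 7 carried them only in fetal cells, 0 only in adult cells, and 3 carried none. Among the 7 fetal-only pairs, 4 were H3K4me1. In the genome cut into tiles as long as the windows, adult-only tiles made up 0.234% to 1.53% for any mark, so 0 adult-only pairs is near the background. Fetal-only tiles made up 23.0% to 30.1% for H3K4me1 and 1.12% to 9.13% for the other marks. Tiles carrying a mark at both stages made up 6.01% to 39.1%, and tiles carrying it at neither stage 47.6% to 89.0%. The windows surround named genes and the tiles do not. The 10 pairs with both and the 3 with none therefore cannot be given to imprinting from these shares. Peaks of H3K27me3 were present in 4 windows at both stages, all but Peg10. H3K4me3 was present in all 5 windows in the fetal list and in 4, all but Mest, in the adult list. Of tiles of 35 kb, 18.1% held a fetal H3K4me3 peak and 17.9% an adult one. For 140 kb the shares were 41.1% and 40.7%.

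The length covered inside the windows was compared with that of the whole lists. H3K4me3 covered 12302 bp of the windows in the fetal and 8102 bp in the adult list, so the adult length was 65.9% of the fetal one. Over the whole lists, of 31.8 and 32.2 Mb, it was 101.0%. H3K27ac covered 6984 and 938 bp, or 13.4% of the fetal length, against 66.3% over lists of 50.4 and 33.4 Mb. For H3K27me3 the lengths were 57528 and 10929 bp, the fetal length being 5.26 times the adult one, against 4.1 times over lists of 38.3 and 9.34 Mb. H3K4me1 covered 36348 and 998 bp, or 2.75%, against 4.91% over lists of 57.3 and 2.81 Mb. For all 4 marks the adult length was a smaller part of the fetal one in the summed windows than over the whole lists. Single windows differed. For H3K27me3 the fetal and adult lengths were 14570 and 6589 bp at H19-Igf2, and 10448 and 1211 bp at Dlk1-Meg3. At Mest they were 8523 and 1105 bp, and at Grb10 23987 and 2024 bp. The H3K4me3 sums rest on 8 fetal and 4 adult peaks and the H3K27ac sums on 5 and 1, all below the median score of their lists. For H3K27ac, H3K4me1 and H3K27me3 the whole adult lists also covered less than the fetal ones.

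**Figure D1:**
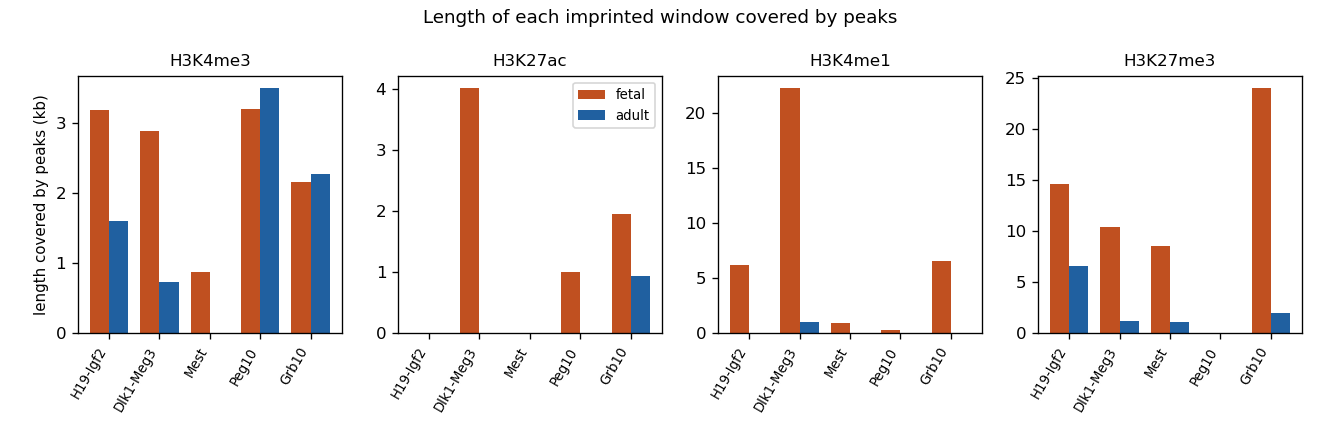
Length of each window covered by peaks (kb, linear scale from 0) for the 4 marks, fetal in orange and adult in blue, each bar from 1 combined list without error. H3K4me3 at Peg10 and Grb10 is of like length at both stages, while H3K27me3 at Grb10 covers 23987 bp in the fetal and 2024 bp in the adult list.

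The same peaks were counted for a partner at the other stage. Of 8 fetal H3K4me3 peaks 4 had no adult peak, against 9.02% of all fetal H3K4me3 peaks, and all 4 adult peaks had a fetal one (7.22% of all adult peaks have none). None of the 5 fetal H3K27ac peaks overlapped an adult one (34.7% of all fetal peaks lack one), and the single adult peak had no fetal partner (11.4%). Among H3K4me1 peaks 52 of 56 fetal ones were without an adult peak, near the 90.8% of the whole list, and all 5 adult peaks had a fetal one (12.6% lack one). For H3K27me3, 12 of 18 fetal peaks had no adult peak, near the 64.5% of the list, and 2 of 27 adult peaks had no fetal one, near the 7.57% of the list. The H3K4me1 and H3K27me3 shares in the windows were therefore close to those of their lists. The H3K4me3 and H3K27ac shares set low-scoring peaks against whole lists. In the windows these peaks lay at the 3.06 to 49.0 and 4.73 to 31.7 percentiles, while the lists include peaks of every score. Shares over peaks of like score were not computed, so the differences cannot be given to the loci.

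The H19-Igf2 window carried a Polycomb domain toward its Igf2 end and no H3K27ac at either stage. H19 lies at the low-coordinate end and Igf2 at the high end, by the order of genes in the RefSeq table. The widest fetal H3K27me3 peak, chr7:149839322-149852040, spanned 12719 bp and had a score of 3100, the peak caller's own value without stated unit, at the 97.9 percentile of its list. Together with a peak of 1231 bp on its left (chr7:149837842-149839072) and one of 620 bp on its right, neither with an adult partner, it spanned 15085 bp. In the adult list 10 peaks of 137 to 2069 bp lay in the widest fetal peak and covered 6382 bp, or 50.2% of it. A further adult peak, chr7:149852078-149852284 (207 bp), fell between the fetal peaks and overlapped none. The widest adult peak, chr7:149845366-149847434, scored 879 and stood at the 98.7 percentile of its own list. The adult signal was thus listed in pieces, but its best-scoring piece ranked as high in the adult list as the fetal domain did in the fetal one. Narrow adult H3K27me3 peaks were common to the whole list and not particular to these windows. The median width was 278 bp over all adult and 1406 bp over all fetal H3K27me3 peaks. In the windows the medians were 299 and 1663 bp.

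H3K4me3 lay inside that domain at both stages. The fetal peak, chr7:149843979-149845927 (1949 bp, score 444), was covered over its whole length by fetal H3K27me3. The adult peak, chr7:149844125-149845728 (1604 bp, score 291), shared 1305 bp, or 81.4%, with 3 adult H3K27me3 peaks. The edges of the 2 peaks differed by 146 and 199 bp. A peak in which H3K4me3 and H3K27me3 overlap is called bivalent here, whether or not H3K27ac was also listed on it. The term is known from promoters held silent but poised. Of the 2 adult bivalent peaks in the windows, the H19-Igf2 one had the longer shared length.

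Toward the H19 end, a further fetal H3K4me3 peak, chr7:149765739-149766976 (1238 bp, score 183, at the 18.6 percentile), began 15.7 kb into the window. It overlapped no other mark of either stage and no adult H3K4me3 peak. No H3K27me3 peak was listed in the first 87.8 kb of the window at either stage. Fetal H3K4me1 had 12 peaks between 6.9 and 100.1 kb, and the adult list had none. The widest of them, chr7:149756861-149758724, was 1864 bp and scored 709. Of the 12 peaks, 8 overlapped no other fetal mark. The share of such peaks over the whole fetal H3K4me1 list was not computed, so this count has no background beside it.

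**Figure D2:**
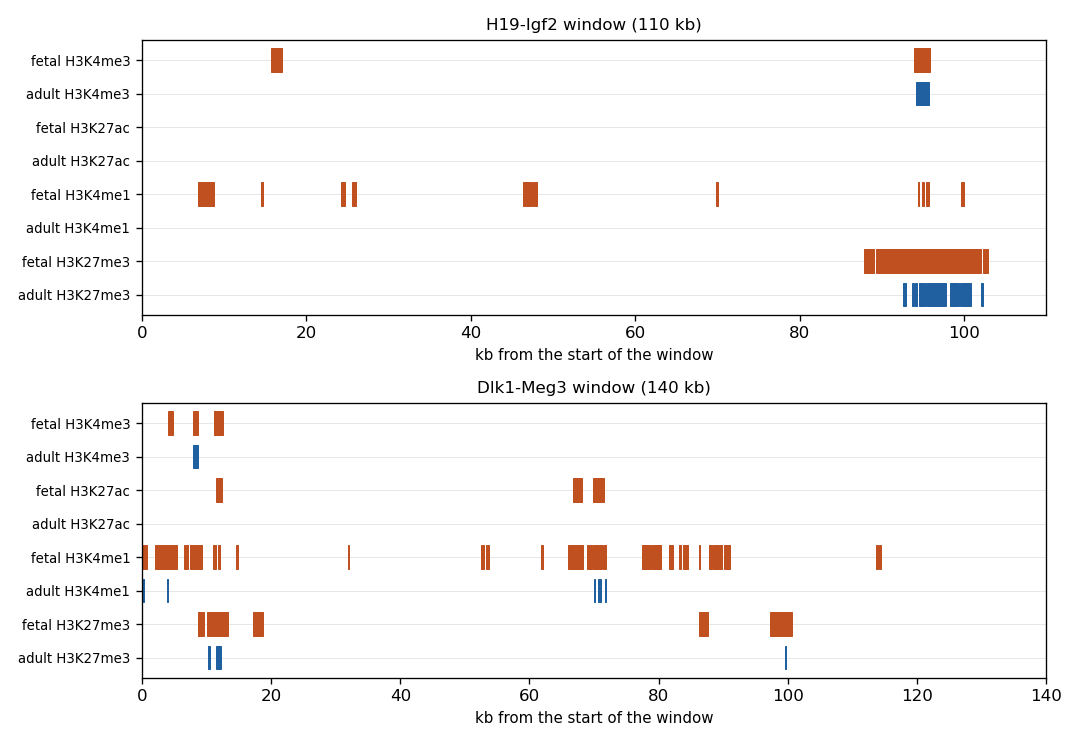
Peaks of the 8 lists in the H19-Igf2 and Dlk1-Meg3 windows, drawn to scale in kb from the start of the window, with fetal lists in orange and adult lists in blue. The H3K27me3 domain near 87.8 to 102.9 kb of the H19-Igf2 window holds H3K4me3 at both stages, whereas at Dlk1-Meg3 the fetal peaks near 11.2 to 12.5 kb have no adult H3K4me3 or H3K27ac.

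The Dlk1-Meg3 window held the most peaks, with 45 from fetal and 11 from adult lists. In the fetal list 22.2% of the window lay under a peak of any mark, and in the adult list 2.1%. Near the Dlk1 end, all 4 marks met in the fetal lists. The fetal H3K4me3 peak chr12:110691194-110692539 (1346 bp, score 426) was covered in full by a 3320 bp H3K27me3 peak, chr12:110690023-110693342. It also shared 885 bp with H3K27ac, which was the whole of the H3K27ac peak chr12:110691422-110692306 (score 58.1, at the 4.73 percentile), and 698 bp with H3K4me1. In the adult lists the same stretch held only H3K27me3, as 4 peaks of 177 to 340 bp, the widest at chr12:110690207-110690546, that covered 1044 bp, or 31.4%, of the fetal domain.

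The remaining H3K4me3 peaks of the window were near the lowest scores listed. The pair shared by the stages, chr12:110687882-110688655 in the fetal and chr12:110687924-110688652 in the adult list, had scores of 66.1 and 61.4, at the 4.04 and 3.06 percentiles. The remaining fetal peak, chr12:110684063-110684822, scored 69.2 and had no adult counterpart. None of these overlapped H3K27me3 or H3K27ac, and both fetal ones lay on H3K4me1, over 774 and 745 bp. From 12.5 to 66.7 kb neither H3K4me3 nor H3K27ac was listed at either stage.

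Farther toward Meg3, fetal H3K27ac peaks were listed at chr12:110746665-110748187 (1523 bp) and chr12:110749876-110751483 (1608 bp), with scores of 115 and 113. Fetal H3K4me1 covered 1523 and 1514 bp of them, and neither H3K4me3 nor H3K27me3 overlapped them. No adult H3K27ac peak was listed in the window, but 3 of the 5 adult H3K4me1 peaks, all of which were in this window, lay between 69.9 and 71.9 kb, 2 of them wholly in the latter H3K27ac peak, covering 511 bp of it. One of them, chr12:110750675-110751030, was at the 94.0 percentile of the adult list. The window held 34 fetal H3K4me1 peaks, from its left edge to 114.4 kb. The widest without an adult H3K4me1 peak, chr12:110745998-110748240, was 2243 bp with a score of 838 and contained the first of the H3K27ac peaks above. Of the 34 peaks, 25 overlapped no other fetal mark, and here too the share over the whole list was not computed.

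H3K27me3 was also listed outside the domain near the Dlk1 end. The widest fetal peak of the window, chr12:110777210-110780661, lay toward Meg3, 97.2 kb into the window, spanned 3452 bp and scored 685. A single adult peak of 167 bp, chr12:110779624-110779790, lay in it and covered 4.84%, with a score of 50.4, at the 1.18 percentile of its list and close to the lowest score listed of 50. A fetal peak of 1325 bp at chr12:110766301-110767625, 86.3 kb into the window, had no adult peak. Neither had one of 1512 bp at chr12:110697153-110698664, which lay near the Dlk1 end, 17.2 kb into the window. H3K4me3 was not listed at any of these 3 places at either stage.

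The Mest window held a bivalent peak in the fetal lists and H3K27me3 alone in the adult lists. The fetal H3K27me3 peak, chr6:30681314-30689836, was 8523 bp wide and covered 24.4% of the window. The fetal H3K4me3 peak, chr6:30687728-30688600 (873 bp), lay wholly in it and scored 78.5, at the 6.38 percentile. No adult H3K4me3 peak was listed. Adult H3K27me3 had 4 peaks of 163 to 450 bp with scores of 50.8 to 120, the widest at chr6:30688252-30688701, which covered 1105 bp, or 13.0%, of the fetal domain. H3K27ac was listed at neither stage, and the only H3K4me1 peak was fetal, 957 bp wide at chr6:30701814-30702770.

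Peg10 was the only locus without H3K27me3 at either stage, and it had the best-ranked H3K4me3 of the 5. The fetal peak, chr6:4695814-4699018, was 3205 bp wide with a score of 1130, and the adult peak, chr6:4695754-4699247, was 3494 bp wide with a score of 1372. They stood at the 43.9 and 49.0 percentiles of their lists. H3K27ac covered 1008 bp of the fetal peak (chr6:4696278-4697285, score 147) and was not listed in the adult window. In the RefSeq table the gene before Peg10 is Sgce, which is also imprinted and starts close to it in the opposite direction, so the peak cannot be given to Peg10 alone. The fetal H3K4me1 peak, chr6:4697458-4697760 (303 bp), lay in the same H3K4me3 peak. The nearest H3K27me3 peaks outside the window were 229 kb away in the fetal and 621 kb in the adult list.

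At Grb10 the longest run of Polycomb peaks among the windows was listed in the fetal cells, around an H3K4me3 peak of both stages. The 9 fetal H3K27me3 peaks of the window covered 23987 bp, and the widest, chr11:11932565-11941701, was 9137 bp with a score of 2704. With gaps of up to 1 kb allowed, they formed a run of 28811 bp that reached 1303 bp past the end of the window and took in 10 peaks. The adult list had 7 peaks of 134 to 420 bp that covered 2024 bp, the widest at chr11:11939308-11939727. Of the 9 fetal peaks, the widest held 5 adult pieces over 15.5% of its length, the peak at the window edge held 1 of 329 bp, and the other 7 held none. The widest of those 7, chr11:11926014-11929996, was 3983 bp with a score of 714. One adult peak, chr11:11941942-11942224 (283 bp), lay just past the widest fetal peak and overlapped none.

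The H3K4me3 peak of the Grb10 window had nearly the same position at both stages. It ran over chr11:11935964-11938120 (2157 bp, score 564) in the fetal and chr11:11935828-11938102 (2275 bp, score 840) in the adult list. Fetal H3K27me3 covered all of the fetal peak, and adult H3K27me3 covered 694 bp, or 30.5%, of the adult peak in 3 pieces. H3K27ac was listed in different places at the 2 stages. The adult peak, chr11:11936372-11937309 (938 bp, score 77.5), lay wholly in the adult H3K4me3 peak and shared 121 bp with adult H3K27me3. The fetal peak, chr11:11847779-11849738 (1960 bp, score 119), was 27.8 kb into the window, shared 1928 bp with fetal H3K4me1 and had no H3K4me3.

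In the Grb10 window H3K4me1 was listed at the fetal stage only. Of its 8 peaks, 7 lay outside the H3K4me3 peak, and the widest, chr11:11859731-11861993, was 2263 bp with a score of 801. The adult list had no H3K4me1 peak in the Mest, Peg10, Grb10 or H19-Igf2 windows. Adult H3K4me1 was listed in 8.58% of tiles of 35 kb, 19.2% of 110 kb and 21.5% of 130 kb. Most stretches of these lengths therefore had none.

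**Figure D3:**
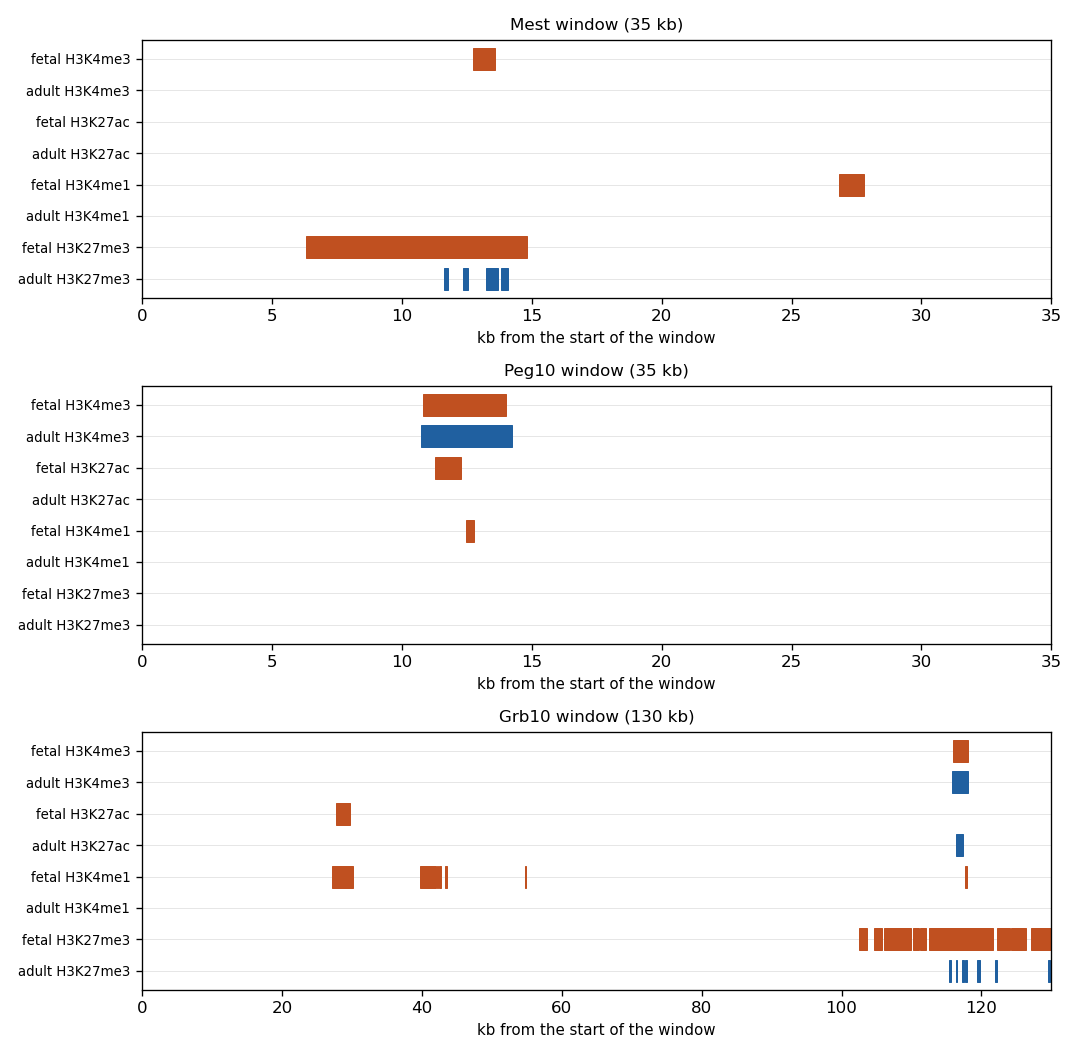
Peaks of the 8 lists in the Mest, Peg10 and Grb10 windows, drawn to scale in kb from the start of each window, fetal in orange and adult in blue. Fetal H3K27me3 forms 1 peak of 8523 bp at Mest and 9 peaks at Grb10, and Peg10 has none at either stage. Adult H3K27me3 forms narrow pieces, as over its whole list (median width 278 bp, against 1406 bp in the fetal list).

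Taking the windows together, H3K4me3 and H3K27me3 overlapped at 4 of 8 fetal H3K4me3 peaks, in the H19-Igf2, Dlk1-Meg3, Mest and Grb10 windows, against 22.3% of all fetal H3K4me3 peaks. In the adult lists they overlapped at 2 of 4, at H19-Igf2 and Grb10, against 12.9%. All 4 fetal peaks were covered in full, over 873 to 2157 bp, and the adult ones by 81.4% and 30.5%. Both adult bivalent peaks were bivalent in the fetal lists. The other fetal ones, in the Dlk1-Meg3 and Mest windows, had no adult H3K4me3 and shared 704 and 349 bp with adult H3K27me3. H3K27ac was found at 2 of 8 fetal H3K4me3 peaks, in the Dlk1-Meg3 and Peg10 windows, against 74.2% of all fetal peaks. It was found at 1 of 4 adult peaks, in the Grb10 window, against 75.7%. The fetal Dlk1-Meg3 peak and the adult Grb10 peak are among the bivalent peaks counted above. They carried 885 and 938 bp of H3K27ac, so not all bivalent peaks lacked this active mark. All H3K4me3 peaks of the windows lay below the median score, while the shares of the lists include peaks of every score. With so few peaks these shares describe the loci and were not tested.

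A window with H3K27me3 was also set against the autosomes and chromosome X, cut into consecutive tiles of the same length. The windows were placed around named genes. The tiles were laid without regard to genes, so they include stretches without genes and can split a domain. Tiles of 35 kb, the length of the Mest and Peg10 windows, held a fetal H3K27me3 peak in 10.4% and an adult one in 6.58%. For 110 kb, the length of the H19-Igf2 window, the shares were 22.8% and 15.8%. For 130 kb, as at Grb10, they were 25.5% and 17.9%, and for 140 kb, as at Dlk1-Meg3, 26.9% and 18.9%. The length covered was 14570 bp at H19-Igf2, 10448 bp at Dlk1-Meg3, 8523 bp at Mest and 23987 bp at Grb10 in the fetal list. Tiles of the same lengths that held any had medians of 3993, 4137, 3109 and 4096 bp. In the adult list the windows had 6589, 1211, 1105 and 2024 bp, and the tiles 1144, 1209, 899 and 1198 bp. All 4 windows lay above the fetal median, and in the adult list Dlk1-Meg3 was 2 bp from it.

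The marks also differed in where the peaks ranked within their lists. All 12 H3K4me3 peaks lay below the median score, between the 3.06 and 49.0 percentiles, and all 6 H3K27ac peaks between the 4.73 and 31.7 percentiles. H3K27me3 peaks were spread over the lists, with 10 of 18 fetal and 15 of 27 adult peaks above the median score. For H3K4me1 this held for 31 of 56 fetal peaks and 1 of 5 adult peaks. Absence of an H3K4me3 or H3K27ac peak at a stage therefore rests on peaks that were low in the list of the other stage, and a weak signal under the threshold of the peak caller cannot be told apart from none.

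**Figure D4:**
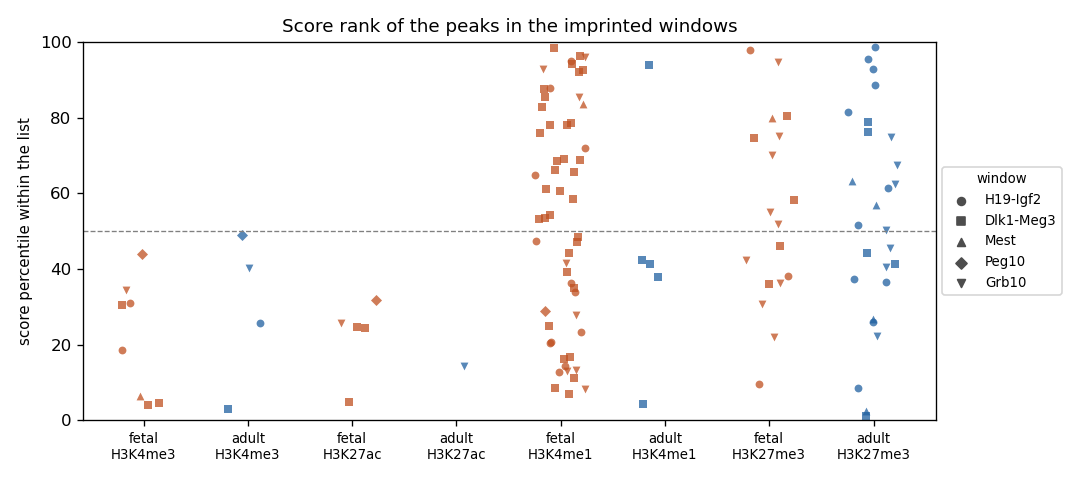
Score percentile within its list (0 lowest, 100 highest; the dashed line is the median) of each of the 124 peaks, by list and with a marker shape for each window; points are spread sideways at random. H3K4me3 and H3K27ac peaks all lie under the line, while H3K4me1 and H3K27me3 peaks reach above the 90 percentile.

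The edges of the windows cut 2 peaks, the fetal H3K4me1 peak chr12:110678348-110680842 at the left end of Dlk1-Meg3 and the fetal H3K27me3 peak chr11:11947078-11950358 at the right end of Grb10. Just outside, the nearest H3K27me3 peak to the right of Grb10 was 0.751 kb away in the fetal and 0.946 kb in the adult list. To the left of Dlk1-Meg3, a fetal H3K27ac peak lay 3.77 kb and an adult H3K4me1 peak 0.841 kb from the edge. H3K4me3 was more isolated, with the nearest peak outside any window at 29.5 kb, to the left of H19-Igf2 in the adult list.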

How the data were processed

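Histone marks were measured by ChIP-seq in fetal and adult HSCs. Per the submitters' processing notes, Bowtie2 2.2.2 was used and the build was mm9. The authors deposited 8 peak lists, 1 per mark and stage, whose titles call them combined, and each was taken as a call on 2 pooled replicates. Each peak has a position and a score of at least 50. The score is the authors' own value, and the prefix MACS in the peak names, per the deposited lists, names the caller. Its version, settings and control are not given in the sources used here. The 4 input samples were not analysed here.

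Only peaks of the autosomes and of X and Y entered. Peaks overlapped when they shared 1 bp or more, and covered length was clipped to the window. The score percentile ranks a peak within its list. Printed positions are 1-based. No mm9 gene annotation was used, so peaks were assigned to windows and not to exons or promoters. The peaks to name were set by a rule: all H3K4me3 and H3K27ac peaks, and the widest H3K4me1 and H3K27me3 peak of each window and stage. The widest peak of a window unmatched at the other stage was also named, and some further peaks were described after their values were seen. The members and lists were chosen with earlier results of these data known. Alternatives changed the score threshold, list length, merging, window edges and overlap. Overlap counting was checked on simulated intervals. Software was Python 3.11.15, pandas 2.3.3, numpy 2.4.6 and matplotlib 3.10.9.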

Additional observations from a re-analysis of the deposited data

How the results depend on the processing

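No paired analysis was possible because replicates were combined in every list, which also prevented leaving a replicate out. Numbers and lengths were taken as moved when they changed by more than 1.5 times, and causes were not tested except where the setting itself removes peaks. Tile shares were instead judged by a binomial confidence interval around the main share. Shifted tiles cut the same genome and hold the same peaks, so the interval served only as a cutoff and does not measure their spread. Values of 0 under both settings counted as unmoved. Of 204 values under alternatives, 157 were unmoved. Among them were all 36 with the midpoint of the peak in the window and both with 500 bp of overlap for bivalent peaks. All 8 tile shares with shifted tiles were also among them.

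The score threshold mattered most, since all H3K4me3 and H3K27ac peaks of the windows lie below the median score. With only peaks at or above it, peak number, covered length, shared peaks, bivalent peaks and H3K27ac overlaps were 0 for H3K4me3 and H3K27ac at both stages. Pairs of window and mark were 5 at both stages, 3 fetal only and 12 neither. Peak numbers were 31 fetal and 1 adult for H3K4me1, and 10 and 15 for H3K27me3. Adult H3K4me1 covered 356 bp. Peaks shared with the other stage were 2 fetal and 1 adult for H3K4me1 and 14 adult for H3K27me3.

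With equal numbers of top-ranked peaks, fetal H3K4me1 had 10 peaks over 14802 bp, 5 pairs had neither stage, and fetal H3K27ac was left at 1 H3K4me3 peak and at 0 of the H3K27me3 overlaps. With peaks merged within 1 kb, adult and fetal H3K27me3 had 9 and 7 peaks, with 9 adult ones shared, and adult H3K27me3 covered 16818 bp. H3K4me1 had 27 fetal and 3 adult peaks, with 3 adult ones shared, and adult H3K4me1 covered 2362 bp. With windows extended by 10 kb, adult H3K4me1 covered 1522 bp. With 50% of the peak covered, 1 fetal H3K27me3 and 0 fetal H3K4me1 peaks had an adult partner, 1 fetal and 0 adult H3K4me3 peaks had H3K27ac, and 0 adult H3K27ac peaks had H3K27me3.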
